A study of Mus musculus with 15 samples.

Results

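The Cyp2c cytochromes P450 are a family of closely related enzymes encoded side by side on mouse chromosome 19. The 10 members were taken by their symbols from a table of 38087 gene rows: Cyp2c29, Cyp2c37, Cyp2c38, Cyp2c39, Cyp2c40, Cyp2c50, Cyp2c54, Cyp2c55, Cyp2c69 and Cyp2c70. All 10 members were found, and all 10 members passed the filter on low counts, which left 17405 genes. The table held 16 Cyp2c rows in all, and 3 of the 6 Cyp2c genes outside the members, Cyp2c44, Cyp2c67 and Cyp2c68, were tested too.

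RNA was sequenced from cryopreserved primary hepatocytes of CD-1 mice, an outbred stock, plated on collagen at 200000 cells per well under a Geltrex overlay. Dexamethasone and insulin were in the medium of every group, and the cells received 25% mouse serum for 24 h followed by hormone or vehicle for 2 h. The groups were male hepatocytes in serum of conventionally raised (ConvR) male mice (3 libraries), female hepatocytes in ConvR male serum (3 libraries), female hepatocytes in serum of germ-free (GF) female mice with growth hormone (GH) at 8 ng per ml (3 libraries), female hepatocytes in GF female serum (2 libraries), and female hepatocytes in ConvR female serum (2 libraries). GF mice carry no microbiota, and under the protocol the groups labelled as having no GH received vehicle. Each sex came from its own commercial donor stock, so donor sex and donor cannot be told apart, and the sources used here give no strain or age for the serum donors. The labels do not say that replicates were separate cultures or serum pools, so p-values measure the spread between these libraries, which may be technical.

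Library totals were 34097400 to 48742274 counts. The female-specific RNA Xist had 3, 3 and 0 counts in the male libraries, against 12370, 9654 and 15615 counts in female libraries with the same serum. Among the female libraries Xist was highest in GH replicate 1 (685 CPM) and ConvR female serum replicate 2 (482 CPM), against 268 to 395 CPM in the others. CPM is the count of a gene relative to the scaled size of its library. All 9 hepatocyte markers had counts, and no listed marker of Kupffer cells, sinusoidal endothelium, stellate cells or cholangiocytes was at 0 across a group.

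Cytochromes P450 are haem enzymes of the endoplasmic reticulum that take electrons from the reductase Por and insert oxygen into their substrates. Members of the Cyp2c subfamily oxidise arachidonic acid to epoxides or hydroxy acids, and several also handle retinoids, steroids, bile acids and drugs. In mouse liver several of these genes are sex-biased under control of the pituitary growth hormone pattern, and several are induced through the receptors CAR and PXR.

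The sequences upstream of 5 genes that differed in the donor comparison are shown. Cyp2c69 and Cyp2c40 were lower in male cells, and their near-copy Cyp2c67 (outside the members) was higher. Cyp2c70 and Cyp2c29 are the members that were higher in male cells. Cyp2c37, Cyp2c38 and Cyp2c39 were also lower and are not shown. A part of these sequences in the donor difference was not tested. The stretches are RefSeq promoter sequences on build GRCm38.p6, 5′ to 3′ on the strand of the gene, starting 150 bases before the RefSeq start and ending at that start or at the first exon base annotated in GENCODE M21. The stretches lie at chr19:39886800-39886919 (minus strand) for Cyp2c69, chr19:39812815-39812964 (minus strand) for Cyp2c40, chr19:39649052-39649192 (minus strand) for Cyp2c67, chr19:40187334-40187436 (minus strand) for Cyp2c70 and chr19:39286935-39287073 (plus strand) for Cyp2c29. Capitals mark matches to CAAAGTCCA, a letter pattern of the liver factor HNF4A, or to TTGCNNAA, a pattern of C/EBP factors.
Cyp2c69: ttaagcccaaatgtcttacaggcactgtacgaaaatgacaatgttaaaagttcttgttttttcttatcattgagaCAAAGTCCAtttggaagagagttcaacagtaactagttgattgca
Cyp2c40: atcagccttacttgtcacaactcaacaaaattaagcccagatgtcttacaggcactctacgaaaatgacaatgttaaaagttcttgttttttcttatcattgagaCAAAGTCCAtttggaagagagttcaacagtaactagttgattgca
Cyp2c67: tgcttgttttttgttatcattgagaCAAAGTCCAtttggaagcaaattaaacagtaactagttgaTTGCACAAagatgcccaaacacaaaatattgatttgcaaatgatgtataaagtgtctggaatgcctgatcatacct
Cyp2c70: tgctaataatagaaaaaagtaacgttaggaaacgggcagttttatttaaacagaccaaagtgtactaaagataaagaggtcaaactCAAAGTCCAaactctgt
Cyp2c29: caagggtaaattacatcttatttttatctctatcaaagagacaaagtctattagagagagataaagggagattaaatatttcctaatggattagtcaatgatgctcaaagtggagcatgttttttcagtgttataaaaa

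Promoter windows of 300 bases, 250 before to 50 after the start, were available for 9 of the 10 members and were searched on both strands for patterns that do not overlap one another. CAAAGTCCA was found in 6 of 14 Cyp2c windows (those of Cyp2c40, Cyp2c65, Cyp2c67, Cyp2c68, Cyp2c69 and Cyp2c70), and in 0.475% of 32851 windows of all genes. The 14 windows are not all of separate genes, as Cyp2c39 appears more than once. Cyp2c40, Cyp2c67, Cyp2c68 and Cyp2c69 are near-copies, so their matches are not independent occurrences. CAAAGTCCA stood in windows of genes that were lower (Cyp2c69, Cyp2c40) and of genes that were higher (Cyp2c67, Cyp2c70) in male cells. TTGCNNAA was in 4 Cyp2c windows (Cyp2c37, Cyp2c40, Cyp2c67 and Cyp2c69) and in 10.8% of all windows; in Cyp2c40 and Cyp2c69 its match runs past the printed end. TTCNNNGAA, the pattern of the growth hormone effector STAT5, was in 0 of 14 Cyp2c windows and in 8.3% of all windows, and GTTAATNAT, a pattern of HNF1 factors, was in 0 of 14 and in 0.801%. Over the 250 bases before the start, Cyp2c69 was 91.3% identical in alignment to Cyp2c68, 77.5% to Cyp2c40 and 62.0% to Cyp2c67. A match describes letters and is not a binding site.

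The members lie in one cluster (mm10), in the order Cyp2c55, Cyp2c29, Cyp2c38, Cyp2c39, Cyp2c40, Cyp2c69, Cyp2c37, Cyp2c54, Cyp2c50 and Cyp2c70, from chr19:39007019-39042693 for Cyp2c55 to chr19:40153353-40187333 for Cyp2c70. Cyp2c67 and Cyp2c68 lie between Cyp2c39 and Cyp2c40. Their likeness decides how far a count belongs to one gene. Coding sequences of Cyp2c40 were 98.1% identical to Cyp2c68, 97.9% to Cyp2c69 and 97.7% to Cyp2c67. Cyp2c37 was 96.1% identical to Cyp2c50 and 95.1% to Cyp2c54, whereas Cyp2c70 had no relative above 70.3% (Cyp2c66).

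**Figure D1:**
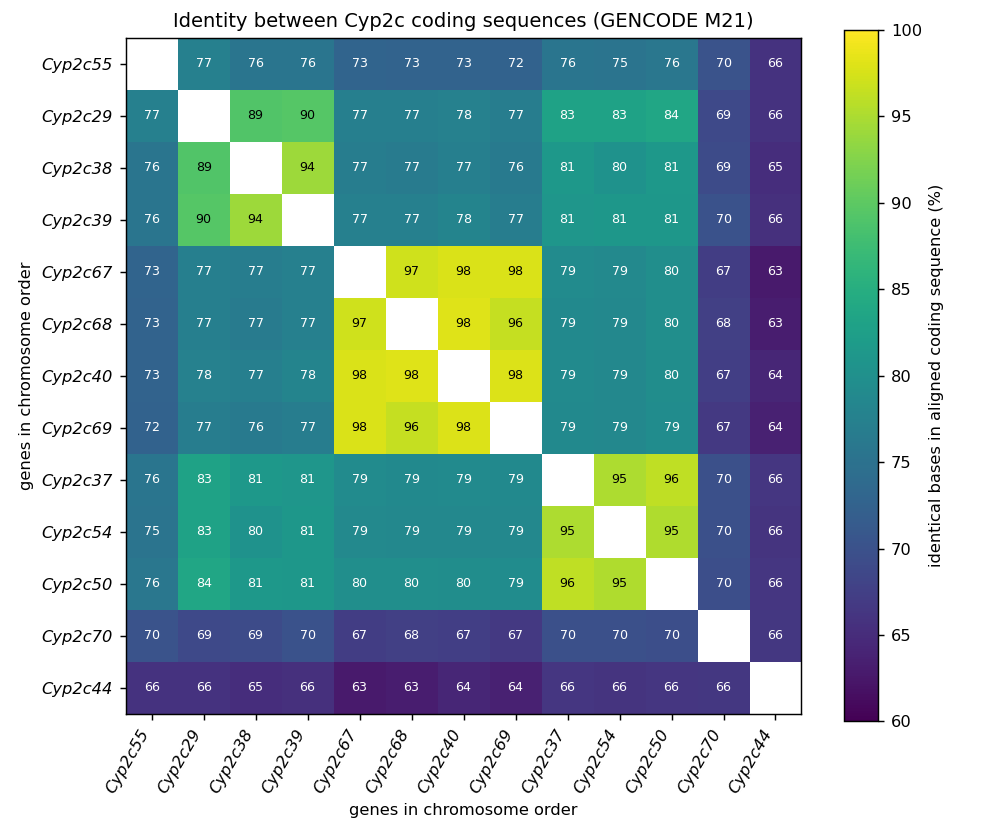
Percent identical bases between aligned coding sequences of the 13 Cyp2c genes tested, in chromosome order on both axes; colour and number give the same value. Cyp2c40, Cyp2c67, Cyp2c68 and Cyp2c69 form one block, Cyp2c37, Cyp2c50 and Cyp2c54 another, and Cyp2c70 and Cyp2c44 stand alone.

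As a measure of shared reads, all stretches of 100 bases, the length of one read, were looked up in the transcripts of other genes. Of the stretches of Cyp2c40 44.1% were found exactly in another gene, against 36.3% for Cyp2c69, 23.7% for Cyp2c67 and 19.8% for Cyp2c68. The share was 9.4% for Cyp2c50, 7.6% for Cyp2c54 and 4.7% for Cyp2c37, and 0.0% for Cyp2c29, Cyp2c38, Cyp2c39, Cyp2c55 and Cyp2c70. Counts of Cyp2c40, Cyp2c67, Cyp2c68 and Cyp2c69 are therefore uncertain for a single gene. Within 2 mismatches of another Cyp2c transcript the share was 89.5% for Cyp2c40, 77.2% for Cyp2c67, 73.4% for Cyp2c68 and 70.3% for Cyp2c69. It was 39.1% for Cyp2c37, 38.3% for Cyp2c50, 26.3% for Cyp2c54, 13.4% for Cyp2c39 and 8.3% for Cyp2c38, so their counts carry the same doubt to a smaller extent, and it stayed at 0.0% for Cyp2c29, Cyp2c55 and Cyp2c70. Cyp2c29 also shares 142 exon bases with the pseudogene Cyp2c53-ps, which had at most 0.123 CPM in any library.

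Cyp2c70, which makes the muricholic acids typical of rodent bile, was the most abundant member per length in all 5 groups. On the scale of CPM per kilobase of transcript its level averaged 104 ± 2.17 (SD, n = 3) in male cells and 39 ± 8.76 (n = 3) in female cells with the same serum. In male cells Cyp2c29, the main epoxide-forming Cyp2c of mouse liver, came next at 71.3 ± 0.945, followed by Cyp2c50 (8.72), Cyp2c54 (4.41), Cyp2c39 (2.98), Cyp2c37 (1.24), Cyp2c38 (0.647), Cyp2c40 (0.171), Cyp2c55 (0.0801) and Cyp2c69 (0.0595). Only the last pair of neighbours in that order overlapped between libraries.

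In female cells the order of mean levels was the same in all 4 groups: Cyp2c70, Cyp2c69, Cyp2c29, Cyp2c37, Cyp2c50, Cyp2c54, Cyp2c39, Cyp2c40, Cyp2c38 and Cyp2c55. In ConvR male serum Cyp2c69 (19.4 ± 2.58 CPM per kilobase, SD, n = 3) and Cyp2c29 (17.3 ± 2.25) overlapped, and so did Cyp2c54 with Cyp2c39 and Cyp2c39 with Cyp2c40. Cyp2c69 and Cyp2c29 overlapped in each of the other 3 female groups too. These levels use the length of the main transcript, 1783 bases for Cyp2c29 and 1812 for Cyp2c50. All annotated exons of these genes cover 3061 and 2918 bases. With such lengths both would stand lower, so the order in female cells depends on this choice. Cyp2c55, which is known mainly from the intestine and is inducible in liver, was close to absent, with 0 to 14 counts in any library.

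**Figure D2:**
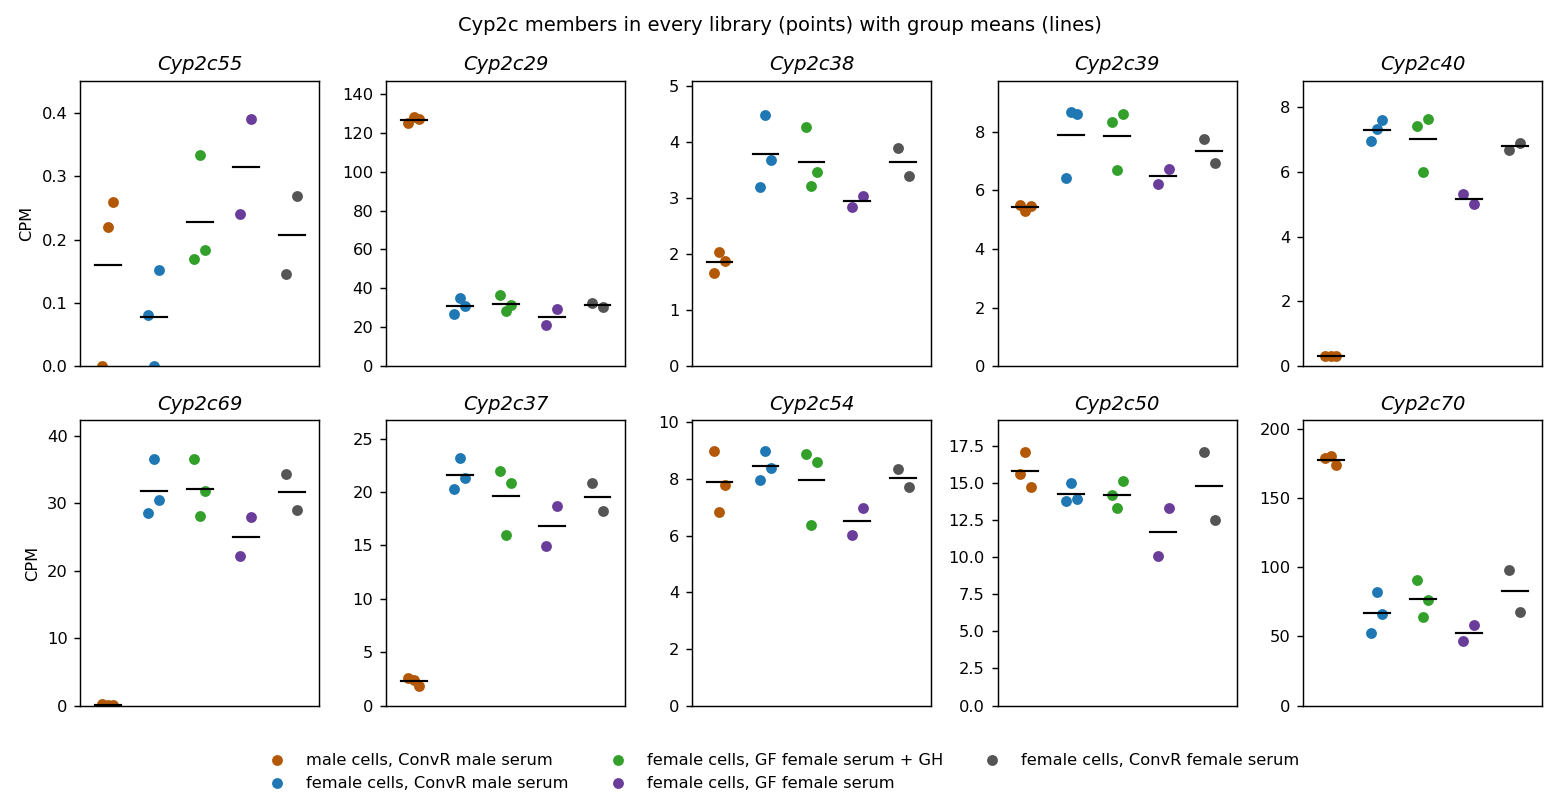
CPM of each member (panels, in chromosome order, each with its own axis from 0) in every library (points) and the group mean (line), with the groups coloured as in the legend. Male cells stand apart from female cells for Cyp2c29, Cyp2c38, Cyp2c39, Cyp2c40, Cyp2c69, Cyp2c37 and Cyp2c70, and in most panels the libraries in GF female serum are among the lowest of the female libraries.

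The first comparison set male against female hepatocytes in the same ConvR male serum. Cyp2c69, Cyp2c40 and Cyp2c37 were lower in male cells by 9-fold or more, Cyp2c38 and Cyp2c39 were also lower, and Cyp2c29 and Cyp2c70 were higher. By edgeR's quasi-likelihood test with Benjamini-Hochberg adjustment, 7 of 10 members passed an adjusted p of 0.05, of which 2 rose and 5 fell in male cells. Among all 17405 genes 17.6% rose and 19.0% fell, so the count of members that rose is near that share and the count that fell is above it. The median log2 fold change was -0.32 over the 10 members and -0.021 over all genes.

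Cyp2c69, a female-biased gene in adult mouse liver, had 5, 3 and 2 counts in the male libraries, against 1065, 1318 and 1204 counts in the female libraries. That is close to absence in male cells, with no overlap. From pooled counts the level was 330-fold higher in female than in male cells (95% exact interval 179 to 688, counting error only), and the fitted log2 fold change was -8.32 ± 0.247 (SE, adjusted p = 4.89e-13).

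Cyp2c40, which turns arachidonic acid into a hydroxy acid, had 10, 11 and 11 counts in male libraries, against 259, 264 and 300 counts in female libraries. The pooled level was 23.6-fold higher in female cells (95% exact interval 16.6 to 34.8), with a log2 fold change of -4.55 ± 0.171 (adjusted p = 7.62e-12). Cyp2c37, also a producer of hydroxy acids, had 2.61, 2.39 and 1.79 CPM in male cells, against 20.3, 23.2 and 21.3 CPM in female cells. Every male library lay far below every female library, and the log2 fold change was -3.25 ± 0.157 (adjusted p = 1.57e-10).

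Cyp2c38 and Cyp2c39 are close relatives of Cyp2c29, and Cyp2c39 oxidises retinoic acid. Cyp2c38 had 1.66, 2.03 and 1.87 CPM in male cells, against 3.19, 4.48 and 3.67 CPM in female cells, a log2 fold change of -1.02 ± 0.173 (adjusted p = 0.000218). Cyp2c39 had 5.5, 5.3 and 5.45 CPM in male cells, against 6.43, 8.68 and 8.6 CPM in female cells, a log2 fold change of -0.55 ± 0.133 (adjusted p = 0.00409). The groups did not overlap for either gene, and Cyp2c39 had the smallest change of the 7.

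Cyp2c29 had 125, 128 and 127 CPM in male cells, against 26.9, 34.9 and 30.9 CPM in female cells. The male libraries were tightly grouped and all above the female ones, with a log2 fold change of 2.04 ± 0.115 (adjusted p = 9.61e-10). Cyp2c70 had 179, 181 and 174 CPM in male cells, against 52.2, 82.3 and 66.5 CPM in female cells, a log2 fold change of 1.41 ± 0.16 (adjusted p = 4e-06). The female libraries spread more widely than the male ones for Cyp2c70, without reaching them.

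The other 3 members did not pass the threshold. Cyp2c50 and Cyp2c54, both arachidonic acid epoxygenases, averaged 15.8 ± 1.19 and 7.88 ± 1.08 CPM in male cells (SD, n = 3), against 14.2 ± 0.671 and 8.45 ± 0.515 CPM in female cells. Their log2 fold changes were 0.15 ± 0.12 (SE, adjusted p = 0.353) for Cyp2c50 and -0.10 ± 0.134 (adjusted p = 0.588) for Cyp2c54, with overlapping libraries. Cyp2c55 had 0, 8 and 9 counts in male libraries, against 3, 0 and 6 in female libraries (adjusted p = 0.404).

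**Figure D3:**
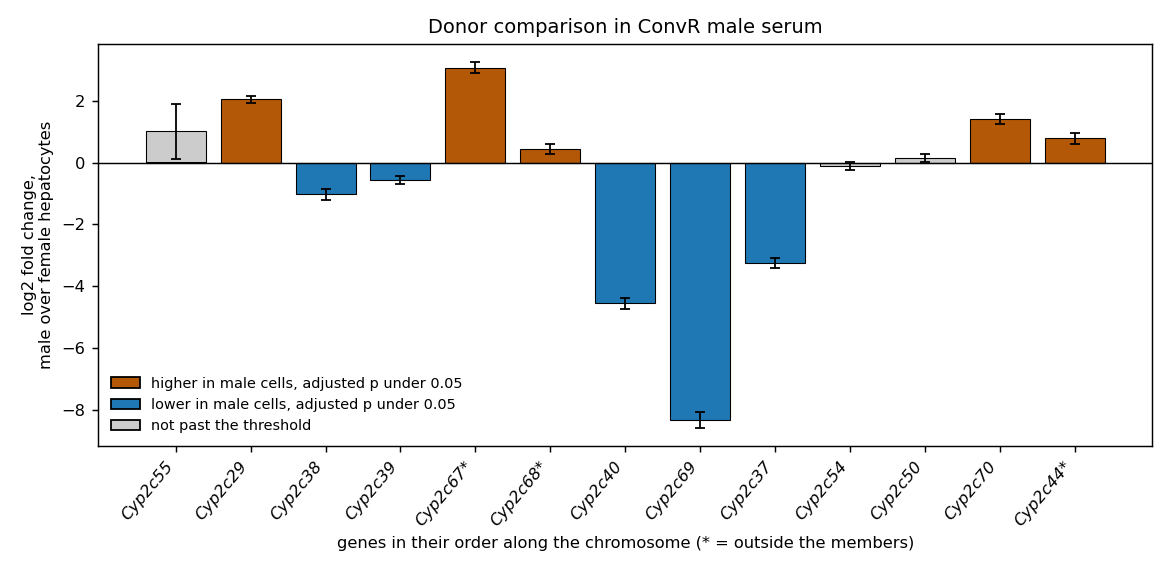
Log2 fold change of male over female hepatocytes in ConvR male serum (vertical axis; bars, with standard error) for the 13 Cyp2c genes tested, in chromosome order; asterisks mark genes outside the members. Cyp2c40, Cyp2c69 and Cyp2c37, which neighbour each other, are the lowest at -4.55, -8.32 and -3.25, and Cyp2c67 is the highest at 3.07.

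All 3 tested Cyp2c genes outside the members rose in male cells. Cyp2c67 had 23.4, 19 and 21.1 CPM in male cells, against 1.87, 3.23 and 2.48 CPM in female cells, a log2 fold change of 3.07 ± 0.173 (adjusted p = 9.6e-10). Its direction was opposite to that of its near-copies Cyp2c69 and Cyp2c40. Cyp2c44, an arachidonic acid epoxygenase farther along the chromosome, changed by 0.78 ± 0.165 (adjusted p = 0.00136). Cyp2c68 changed by 0.44 ± 0.155 (adjusted p = 0.0371). It lost that call (adjusted p = 0.0838 to 0.121) without male replicate 2 or 3 or without female replicate 1 or 2. Scaling by library totals only also lost the call (0.35, adjusted p = 0.084).

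With near-copies summed before the fit the groups also differed. How reads shared among copies were counted is not given in the sources used here, so the sums too can depend on it. The sum of Cyp2c40, Cyp2c67, Cyp2c68 and Cyp2c69 was 29, 25.8 and 27.7 CPM in male cells, against 41.6, 51.1 and 45.5 CPM in female cells, a log2 fold change of -0.74 (adjusted p = 1.82e-05). The sum of Cyp2c37, Cyp2c50 and Cyp2c54 was 27.3, 26.3 and 24.3 CPM in male cells, against 42, 47.2 and 43.5 CPM in female cells, a log2 fold change of -0.77 (adjusted p = 2.63e-05). Both sums were lower in every male library, by far less than their most changed single members.

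The make-up of the family differed between the donors. The 10 members together had 339, 344 and 334 CPM in male cells, against 166, 222 and 191 CPM in female cells. Of the length-corrected level of all 13 Cyp2c genes, Cyp2c70 and Cyp2c29 held 49.1% ± 0.479 and 33.7% ± 0.589 in male cells (SD, n = 3), against 33.6% ± 2.91 and 15% ± 0.165 in female cells. Cyp2c69 held 0.0281% in male cells and 16.8% in female cells, and Cyp2c37 held 0.586% in male cells and 10.3% in female cells. All these shares depend on the transcript lengths used.

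**Figure D4:**
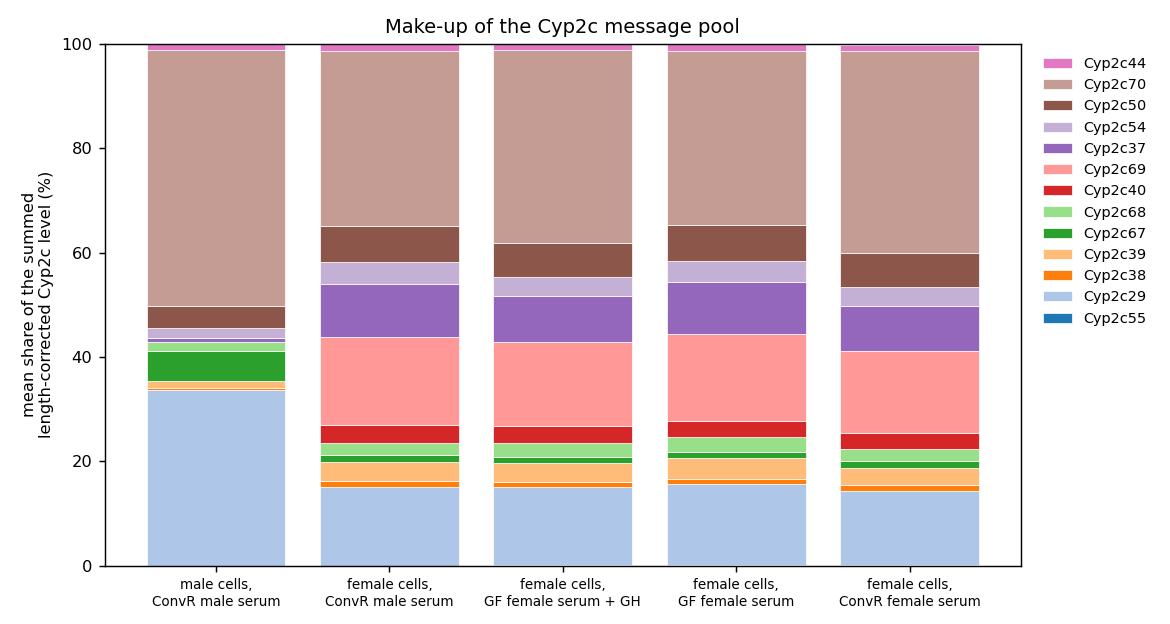
Share of each Cyp2c gene in the summed CPM per kilobase of the 13 tested genes (stacked bars, percent, mean over the libraries of each group). Cyp2c29 and Cyp2c70 fill most of the bar of male cells, whereas Cyp2c69 and Cyp2c37 hold 16.8% and 10.3% in female cells with the same serum, and the 4 bars of female cells look alike.

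General hepatocyte genes moved in the same comparison. The summed level of the 9 hepatocyte markers was 31452 to 32838 CPM in male cells, against 14927 to 16419 CPM in female cells, with 8 markers that rose and 1 that fell. Alb, serum albumin, changed by 1.39 ± 0.066 on the log2 scale, beside 1.41 for Cyp2c70. Summed markers of sinusoidal endothelium were 35.7 to 38.7 CPM in male cells and 14.6 to 17.3 CPM in female cells (6 of 7 rose). Those of Kupffer cells were 148 to 167 CPM in male cells and 77.5 to 97.5 CPM in female cells (1 of 6 tested rose). Most of the Kupffer cell sum was Cd68 (means of 154 and 79 CPM), the 1 that rose, and the median of that list was -0.15. Stellate cell markers summed to 29.3 to 32.8 CPM in male cells and 15.4 to 20.9 CPM in female cells (3 of 7 rose, 1 fell), and cholangiocyte markers to 27.8 to 34 CPM in male cells and 34 to 41.1 CPM in female cells (1 of 5 rose, 1 fell). The part of these markers in the Cyp2c results was not tested, and in bulk RNA fewer cells of a type and less RNA per cell cannot be told apart.

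Genes that work with or beside the family were counted from lists. Of 9 partners of P450 enzymes 3 rose and 2 fell in male cells: Por, the electron donor, changed by -0.78 ± 0.066, Cyb5, cytochrome b5, by 0.68 ± 0.0629, and Pgrmc1, a haem-binding membrane protein, by 0.56 ± 0.0617. Of 9 tested genes of arachidonic acid epoxidation and its neighbours 4 rose and 1 fell, led by the cyclooxygenase Ptgs2 (2.21) and the epoxygenases Cyp2j5 (1.40) and Cyp2j6 (0.63). Of 15 bile acid synthesis genes, the pathway in which Cyp2c70 acts, 11 rose and 0 fell, led by Akr1c6 (2.36), Cyp7b1 (1.34) and Scp2 (1.33). The list medians were 0.04, 0.33 and 0.70.

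Of 21 CAR and PXR targets 12 rose and 6 fell in male cells (median 0.49). The largest changes were falls of Cyp3a44 (-4.03), Cyp2b9 (-3.77) and Cyp3a41a (-3.27), P450 genes known as female-biased in mouse liver and with close copies of their own. Of 19 tested regulators 3 rose and 6 fell (median 0.04), among them Bcl6, a repressor in growth hormone signalling (-0.76), Stat5a, a growth hormone effector (-0.71), and Prox1, a liver homeobox factor (0.66). Of 15 tested pericentral genes, which mark the zone where many P450 genes are expressed, 4 rose and 5 fell (median -0.23), led by the glutamate transporter Slc1a2 (-1.59), the transcription factor Tbx3 (-1.25) and the vasopressin receptor Avpr1a (1.13).

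The second comparison asked what serum of GF rather than ConvR female mice did to female hepatocytes. No member passed the adjusted threshold, while 9 of 10 had a lower mean in GF serum, against 50.4% of all genes with a negative log2 fold change. By edgeR 0 of 10 members were called (5 at an unadjusted p under 0.05, each lower in GF serum), and DESeq2 called 0. Among all genes 2.86% rose and 3.54% fell at the adjusted threshold. The share of all genes at an unadjusted p under 0.05 was not counted. Every GF library lay below every ConvR library for 7 of 10 members, against 26.2% of all genes. All members were read in the same libraries, and GF replicate 2 was the lowest female library for 8 of 9 members (Cyp2c55 left out). Counts of members are therefore not counts of separate results. The median log2 fold change was -0.31 over the members and -0.003 over all genes.

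Cyp2c70 had 46.5 and 58.6 CPM in GF serum, against 98 and 67.6 CPM in ConvR serum. The libraries did not overlap, and the log2 fold change of -0.66 ± 0.195 had an adjusted p of 0.0564. It was -0.37 (adjusted p = 0.481) without ConvR female replicate 2, one of the pair highest in Xist, and -0.90 (adjusted p = 0.0131) without ConvR female replicate 3. Cyp2c40 had 5.33 and 5.02 CPM in GF serum, against 6.69 and 6.88 CPM in ConvR serum, a log2 fold change of -0.39 ± 0.138 (adjusted p = 0.112).

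Cyp2c69 had 22.2 and 27.9 CPM in GF serum, against 34.4 and 29 CPM in ConvR serum, and Cyp2c29 had 21.3 and 29.5 CPM in GF serum, against 32.3 and 30.2 CPM in ConvR serum. Neither overlapped, and GF replicate 3 came close to the ConvR libraries for both. Their log2 fold changes were -0.34 ± 0.144 (adjusted p = 0.182) and -0.30 ± 0.14 (adjusted p = 0.226). Single libraries moved both: without GF replicate 2 Cyp2c69 was at -0.19 and Cyp2c29 at -0.09, and without GF replicate 3 they were at -0.52 and -0.56. Without ConvR female replicate 2 Cyp2c69 was at -0.22. Cyp2c50 (-0.34), Cyp2c54 (-0.31), Cyp2c38 (-0.31), Cyp2c37 (-0.21) and Cyp2c39 (-0.18) had adjusted p values of 0.188 to 0.561, and Cyp2c55 was at 0.60 ± 0.817. With a library left out Cyp2c50 ranged from -0.56 (without GF replicate 3) to -0.11 (without ConvR female replicate 2), and Cyp2c37 from -0.38 (without GF replicate 3) to -0.06 (without GF replicate 2).

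Hepatocyte markers went along: 6 of 9 fell in GF serum and 0 rose (median -0.43). Their summed level was 14686 to 15242 CPM in GF serum and 15959 to 18182 CPM in ConvR serum. Alb, which was not called, went the other way, with 6245 and 6926 CPM in GF serum and 5919 and 5824 CPM in ConvR serum. Markers of Kupffer cells summed to 125 to 133 CPM in GF serum and 104 to 113 CPM in ConvR serum, and those of stellate cells to 29.3 to 31.3 CPM in GF serum and 20.1 to 27 CPM in ConvR serum, without overlap for either list. In ConvR female serum most of the Kupffer cell sum was Cd68 (mean of 103 CPM), which was not called here. Endothelial markers summed to 16.1 to 16.3 CPM in GF serum and 15.1 to 17.3 CPM in ConvR serum, and cholangiocyte markers to 37.7 to 39.2 CPM in GF serum and 28.9 to 38.4 CPM in ConvR serum. By edgeR 0 markers of Kupffer, endothelial, stellate or cholangiocyte lists were called (1, 1, 2 and 0 at an unadjusted p under 0.05, 0 by DESeq2). The list medians were -0.00, 0.11, 0.22 and -0.00 in that order. The part of all these markers was not tested. Of 21 CAR and PXR targets 7 fell and 0 rose (median -0.37), led by Cyp2b10, the classic CAR target (-1.48 ± 0.132), Gadd45b (-0.86) and Ugt2b34 (-0.68). Of 15 bile acid synthesis genes 4 fell and 0 rose (median -0.29), led by Baat (-1.28), which conjugates bile acids, Acox2 (-1.11) and Akr1c6 (-0.70). Of 19 tested regulators 2 rose and 7 fell (median -0.33), led by Onecut2 (0.91), the fatty acid receptor Ppara (-0.75) and the PXR gene Nr1i2 (-0.70). Among P450 partners 2 of 9 fell (Cyb5 at -0.53 and Pgrmc1 at -0.26, list median -0.12), among epoxygenase pathway genes 1 of 9 fell (the epoxide hydrolase Ephx1 at -0.55, list median -0.03), and among pericentral genes 2 of 15 fell (Avpr1a at -0.91 and Rhbg at -0.49, list median -0.20). Cyp2c67 (-0.53), Cyp2c44 (-0.27) and Cyp2c68 (-0.20) did not pass the threshold.

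The third comparison set ConvR male against ConvR female serum on female hepatocytes. By edgeR 0 of 10 members were called, 0 had an unadjusted p under 0.05, and DESeq2 called 0. Among all genes 3.95% rose and 4.85% fell at the adjusted threshold. The median log2 fold change was 0.03 over the members and 0.002 over all genes. Cyp2c70 had 52.2, 82.3 and 66.5 CPM in male serum, against 98 and 67.6 CPM in female serum (log2 fold change -0.31 ± 0.175, adjusted p = 0.299). Cyp2c69 had 28.5, 36.6 and 30.5 CPM in male serum, against 34.4 and 29 CPM in female serum (0.01 ± 0.131, adjusted p = 0.985).

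Except for Cyp2c40, every member had overlapping libraries between the sera. The share of all genes without overlap was not counted for this comparison. Cyp2c40 had 6.94, 7.34 and 7.59 CPM in male serum, against 6.69 and 6.88 CPM in female serum (0.10 ± 0.124, adjusted p = 0.658). Cyp2c29, Cyp2c37, Cyp2c38, Cyp2c39, Cyp2c50 and Cyp2c54 had log2 fold changes between -0.06 (Cyp2c50) and 0.15 (Cyp2c37), with standard errors of 0.127 to 0.177. Cyp2c55 was at -1.34 ± 0.901 on 0 to 12 counts. The direction of such small values was not stable: Cyp2c29, Cyp2c38, Cyp2c50 and Cyp2c69 changed sign when single libraries were left out.

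The sera did differ for other genes of the lists. Of 21 CAR and PXR targets 5 fell in male serum and 0 rose (median -0.28), led by Cyp2b10 (-1.59 ± 0.117), Ugt2b34 (-0.91) and Cyp3a13 (-0.40). Of 15 bile acid synthesis genes 1 rose and 3 fell (median -0.37), led by Baat (-1.03), Acox2 (-0.81) and Cyp8b1, the sterol hydroxylase of cholic acid synthesis (0.55). Of 19 regulators 1 rose and 4 fell (median -0.24), led by Nr1i2 (-0.72), Foxa2 (-0.64) and Ppara (-0.58). P450 partners had 1 rise (Hmox1, 0.45) and 1 fall (Cyb5, -0.51; list median -0.06), the epoxygenase pathway 1 fall (Ephx1, -0.46; list median 0.08) and the pericentral genes 0 calls by edgeR (3 at an unadjusted p under 0.05 and 1 by DESeq2; list median -0.06). Of 9 hepatocyte markers 4 fell in male serum and 0 rose (median -0.36). Kupffer cell markers summed to 77.5 to 97.5 CPM in male serum and 104 to 113 CPM in female serum. Most of that sum was Cd68 (means of 79 and 103 CPM), the 1 fall among 6 tested (-0.38), and the list median was 0.11. Stellate cell markers summed to 15.4 to 20.9 CPM in male serum and 20.1 to 27 CPM in female serum (0 of 7 called, list median -0.24). Endothelial markers had 0 calls (list median 0.04). Cholangiocyte markers had 1 rise (Sox9, 0.79) and 1 fall (Spp1, -0.70), with a list median of 0.03. The part of these markers was not tested.

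The last comparison set GH against vehicle for 2 h in GF female serum. The hormone's target Socs2 had 31.3, 26.9 and 27.2 CPM with GH, against 15.5 and 14.6 CPM with vehicle, and rose by 0.92 ± 0.119 on the log2 scale (adjusted p = 0.000494). Another target, Cish, was at 0.42 ± 0.141 (adjusted p = 0.235). No Cyp2c member passed the adjusted threshold: by edgeR 0 of 10 were called (4 at an unadjusted p under 0.05, each higher with GH), and DESeq2 called 0. Among all genes 0.511% rose and 0.0747% fell at the adjusted threshold. The share of all genes at an unadjusted p under 0.05 was not counted here either.

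Of the 10 members 9 had a higher mean with GH, with a median log2 fold change of 0.31 over the members and -0.001 over all genes. Of all genes 50.3% had a negative log2 fold change with GH. The members share their libraries here too, so counts of members are not counts of separate results. Every GH library lay above every vehicle library for 5 of 10 members (Cyp2c38, Cyp2c40, Cyp2c50, Cyp2c69 and Cyp2c70), against 16.6% of all genes. For Cyp2c50 this was by less than the digits given, as GH replicate 2 and vehicle replicate 3 both had 13.3 CPM. Cyp2c70 had 90.7, 64 and 76.6 CPM with GH, against 46.5 and 58.6 CPM with vehicle (0.55 ± 0.18, adjusted p = 0.219). Cyp2c40 had 7.43, 5.99 and 7.64 CPM with GH, against 5.33 and 5.02 CPM with vehicle (0.44 ± 0.128, adjusted p = 0.167).

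Cyp2c69 had 36.5, 28.1 and 31.8 CPM with GH, against 22.2 and 27.9 CPM with vehicle, so that GH replicate 2 and vehicle replicate 3 nearly met. Its log2 fold change was 0.36 ± 0.133 (adjusted p = 0.281), and that of Cyp2c29, whose libraries overlapped, was 0.34 ± 0.129 (adjusted p = 0.288). Without GF replicate 2 Cyp2c69 was at 0.21 and Cyp2c29 at 0.13, and without GF replicate 3 they were at 0.54 and 0.60. Cyp2c38 (0.32), Cyp2c54 (0.30), Cyp2c39 (0.28), Cyp2c50 (0.28) and Cyp2c37 (0.22) had adjusted p values of 0.397 to 0.54, and Cyp2c55 was at -0.46 ± 0.736. The vehicle libraries here are the same 2 GF libraries as in the comparison of GF with ConvR serum, so a low level in them enters both comparisons with opposite sign.

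Few listed genes passed edgeR's test with GH. Bcl6 fell by 0.72 on the log2 scale (adjusted p = 0.00606), the 1 call by edgeR among 19 regulators (2 by DESeq2; list median 0.02), and Gadd45b, a stress-induced gene, rose by 0.71 (adjusted p = 0.0238), the 1 call by edgeR among 21 CAR and PXR targets (2 by DESeq2; list median 0.16). By edgeR 0 P450 partners, epoxygenase pathway genes and bile acid synthesis genes were called (3, 4 and 2 at an unadjusted p under 0.05, 0 by DESeq2), with list medians of 0.12, 0.20 and 0.13. Pericentral genes had 0 calls too (5 at an unadjusted p under 0.05, 1 by DESeq2) and a median of 0.17. Hepatocyte markers had 0 calls (5 at an unadjusted p under 0.05, 1 by DESeq2) and a median of 0.19, with a summed level of 15093 to 18077 CPM with GH and 14686 to 15242 CPM with vehicle. Summed markers of 3 other cell types were lower with GH without overlap. Kupffer cells summed to 88.3 to 107 CPM with GH and 125 to 133 CPM with vehicle (list median -0.12), a sum that was mostly Cd68 in the ConvR groups. Stellate cells summed to 17.4 to 24.1 CPM with GH and 29.3 to 31.3 CPM with vehicle (list median -0.56). Endothelium summed to 13.2 to 15.3 CPM with GH and 16.1 to 16.3 CPM with vehicle (list median -0.27). Cholangiocyte markers summed to 37.3 to 48.9 CPM with GH and 37.7 to 39.2 CPM with vehicle (list median 0.44). By edgeR 0 markers of the Kupffer, stellate, endothelial and cholangiocyte lists were called (3, 2, 1 and 1 at an unadjusted p under 0.05; 1, 0, 0 and 0 by DESeq2), and the part of these markers in the Cyp2c values was not tested. Cyp2c67 (0.43), Cyp2c68 (0.33) and Cyp2c44 (0.27) were not called.

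**Figure D5:**
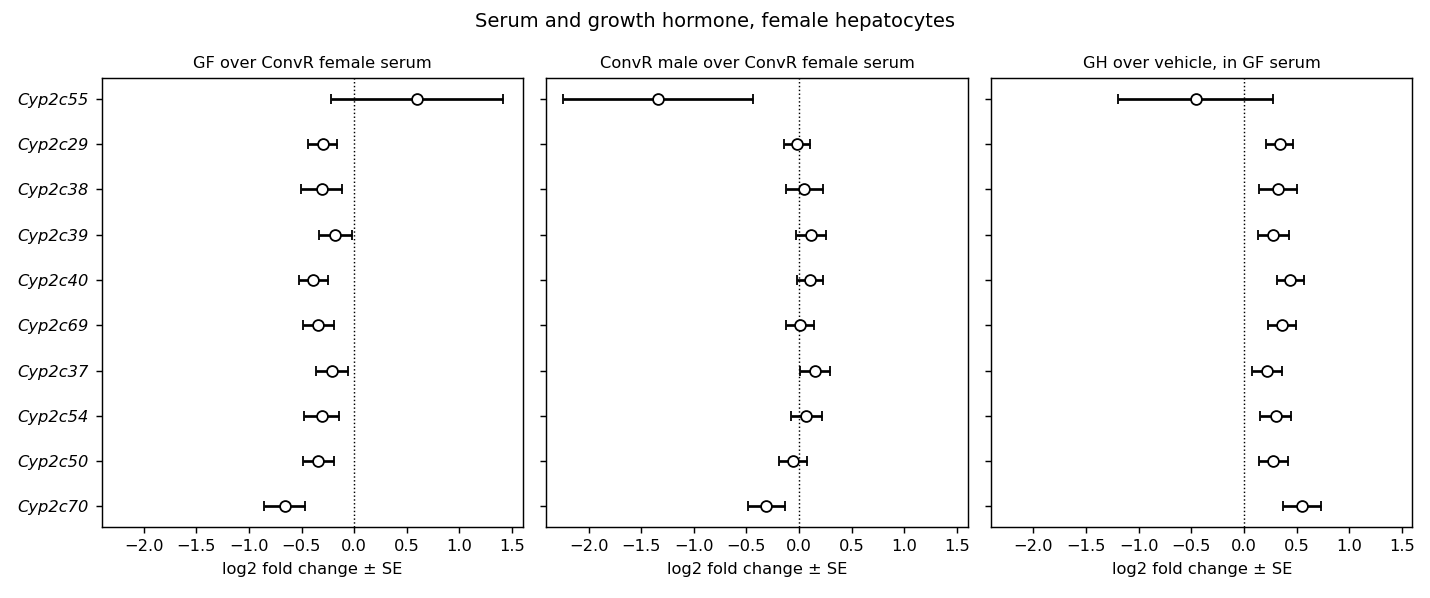
Log2 fold change with standard error (horizontal axis) of each member (rows, chromosome order) in the 3 comparisons within female hepatocytes; the dotted line marks no difference. Except for Cyp2c55, the points lie left of the line for GF over ConvR serum and right of it for GH over vehicle, comparisons that share the 2 GF libraries.

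Across the 10 female libraries the members varied together. Pearson correlations of log2 CPM between 9 members, without the nearly absent Cyp2c55, were 0.57 to 0.97 with a median of 0.81 over 36 pairs, and those with Cyp2c55 were -0.67 to -0.32. Outside the members, Cyp2c68 had 0.08 to 0.55 with these 9, against 0.59 to 0.93 for Cyp2c67 and 0.66 to 0.90 for Cyp2c44. Pairs of all genes were not computed, so the likeness is not shown to be particular to the family. Each library is one point and carries its own depth and scaling for all members, so these values are a description. GF replicate 2 was the lowest female library for 8 of the 9 members, at a mean of -0.39 from their own averages on the log2 scale, and GF replicate 3 was at -0.15. Female cells in ConvR male serum replicate 2 (0.23), GH replicate 1 (0.22) and ConvR female serum replicate 2 (0.17) were the highest. The last of these and GH replicate 1 were also the highest in Xist, whereas ConvR male serum replicate 2 was the lowest female library in Xist (268 CPM). GH replicate 2 was at -0.14, next to GF replicate 3.

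Genes with the most similar course over the 10 female libraries, among those outside the family with a mean count of at least 50, were picked for the 4 members with the highest CPM. For Cyp2c70 they were Mettl7b (Pearson r = 0.97) and Slc30a7 (0.96), for Cyp2c69 Apoc1 (0.98) and Kdelr2 (0.97), for Cyp2c29 C4bp (0.97) and Prdx2 (0.96), and for Cyp2c37 C8g (0.96) and Fxyd1 (0.95). As the highest values among all such genes, they describe these libraries and carry no test.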

How the data were processed

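The deposited values are raw counts per gene over exons, unscaled, per the file headers. Alignment with STAR 2.4.0i to mm10 is recorded in the submitters' processing notes; the sources used here do not give the counting program, annotation or strand setting. Libraries were stranded total RNA after ribosomal depletion (250 ng, 12 PCR cycles, 2 reads of 100 cycles), per the labels' protocols.

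Of 15 labelled samples 13 libraries were used: 2 columns share one header name and were left out. Counts were scaled by TMM, filtered with filterByExpr (minimum count 10) and fitted in edgeR 4.0.16 (R 4.3.3) as 5 group means, with 8 residual degrees of freedom and a biological coefficient of variation of 9%; quasi-likelihood tests were two-sided, adjusted by Benjamini-Hochberg over 17405 genes. DESeq2 1.42.0, other scalings, no filter, 2-group fits, a replicate block, left-out libraries and summed near-copies were alternatives. CPM use TMM-scaled library sizes, log2 CPM a prior count of 2, and lengths are those of the main GENCODE M21 transcript. Within groups, library pairs differed by a chi-square of 5.46 to 53.36 per degree of freedom (genes with at least 20 counts in the pair), so none was a copy. Intervals cover counting error only.

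The members and the 12 lists were chosen with earlier results of these data known. Of 136 list entries 131 matched by symbol, 3 by gene identifier and 2 were unmatched. All members are named; lists give counts, medians and up to 3 called genes with the largest change, and likeness names 2 genes for each of 4 members. Coding sequences were aligned in place of proteins, for which no table was used here (Biopython 1.88).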

Additional observations from a re-analysis of the deposited data

How the results depend on the processing

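The donor comparison kept 7 called members (2 rose, 5 fell) with RLE size factors, library totals, no filter, DESeq2, a fit of its 2 groups, the replicate block and each library left out (7 to 7); library totals put the median of all genes there at -0.108. In GF against ConvR female serum 0 members were called; the count was 1 (Cyp2c70) with library totals only, 3 (Cyp2c29, Cyp2c69, Cyp2c70) with no filter, 0 to 2 with a library left out, 2 (Cyp2c50, Cyp2c70) without ConvR female replicate 3, and 0 otherwise. With no filter 1 member (Cyp2c70, -0.32) was called in ConvR male against female serum and 3 (Cyp2c29, Cyp2c69, Cyp2c70) with GH; the cause was not tested. In both, every other alternative, including each library left out, gave 0 to 0. Without the libraries highest in Xist, an alternative chosen after seeing the data, the 3 comparisons within female cells had 0 calls. The replicate block gave 7, 0, 0 and 0 called members; same-numbered libraries correlated at -0.016 to 0.126 in their deviations, so the numbers were not taken as pairs. Of 488 member values under alternatives 465 kept direction and side of the threshold, 10 gained a call and 13 changed sign. In the donor comparison Cyp2c54 ranged from -0.20 to 0.0016 with a library left out, the highest without male replicate 2. In male against female serum Cyp2c69 was -0.01 with library totals, no filter or the replicate block; with left-out libraries it ranged from -0.11 to 0.13, Cyp2c29 from -0.11 to 0.07, Cyp2c38 from -0.09 to 0.16, Cyp2c50 from -0.26 to 0.18 and Cyp2c44 from -0.15 to 0.07. Single values there were -0.10 and -0.11 (Cyp2c69) and -0.04 (Cyp2c38), and, without the libraries highest in Xist, 0.03 (Cyp2c29), 0.18 (Cyp2c50) and 0.07 (Cyp2c44). Low counts limit Cyp2c55 (0 to 14 counts) and Cyp2c69 and Cyp2c40 in male cells, and groups of 2 libraries limit the serum and hormone comparisons.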
